A study of Mus musculus with 20 samples.

Results

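The comparison of day 7 with day 4 follows induced 3T3-L1 cells over the 3 days after fat cell RNAs had reached high levels. It rests on 4 of the 20 samples of the series, a day 4 and a day 7 sample on each of 2 array types, called A and B here. All samples came from 3T3-L1, an established line of mouse fibroblasts that turn into fat-storing cells, and each was labelled with a stage of differentiation driven by MDI. MDI is the common name of a mixture of methylisobutylxanthine, which raises cyclic AMP, dexamethasone, a synthetic glucocorticoid, and insulin. The 10 stages were preconfluent and confluent cells, then 6, 12 and 24 hours and days 2, 3, 4, 7 and 28 after induction. Day 4 and day 7 cells therefore shared the line and the induction and differed in the time since it, while the day at which the hormones were withdrawn and the changes of medium are not given in the sources used here. Each stage had 1 sample on each array type, so no difference below has a replicate check, an error or a test, and every fold change compares 2 hybridised samples. The samples are cultures, and for bulk RNA of this kind fewer cells of a type and less RNA per cell cannot be told apart.

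Adipocyte differentiation in this line runs through a cascade of transcription factors. C/EBPβ and C/EBPδ are induced early by the hormone mixture, and they switch on PPARγ and C/EBPα, which maintain each other and the genes for lipid uptake, synthesis and storage. Dexamethasone acts through the glucocorticoid receptor and methylisobutylxanthine through cyclic AMP, and both have direct target genes whose RNA depends on the continued presence of the hormone. Cells that fill with lipid also draw on pathways for protein folding, amino acid supply and lysosomal breakdown, which have transcriptional programmes of their own.

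The values are the intensities deposited for each probe set, which is a group of short probes for 1 transcript. The arrays held 13069 probe sets other than the maker's controls (6529 on A and 6540 on B), of which 7542 were annotated with exactly 1 gene symbol. Intensities could fall below 0, so values under a floor of 136 on array A and 156 on array B were raised to it before log2 was taken. At the floor or below it lay 47.3% of probe sets on day 4 and 44.6% on day 7 on array A, against 54.7% and 54.2% on array B. A probe set counts as measured where the brighter of its 2 values exceeded 500, and as higher or lower where the values differed 2-fold or more. Where the dimmer value was at the floor, the fold change is a lower bound and is written "at least". Intensities of different probe sets are not compared with each other.

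Both samples carried the RNAs of fat cells. Adiponectin RNA (Adipoq, a hormone secreted by fat cells) was between 96 and 217 from the preconfluent stage to 24 hours, 1150 on day 2 and 10700 on day 3, then 17700 on day 4, 16500 on day 7 and 19900 on day 28. Lipoprotein lipase (Lpl), which frees fatty acids from circulating lipid, measured 33300 on day 4 and 39300 on day 7, and hormone-sensitive lipase (Lipe) 15600 and 20000. The central regulators moved little, with Pparg at 1640 and 1210 and Cebpa at 1700 and 1990. Fatty acid binding protein 4 (Fabp4), the carrier that marks mature fat cells, was the exception among these checks, at 28400 on day 4, 12700 on day 7 and 25900 on day 28, a 2.24-fold lower value on day 7 read from a probe set whose name marks it as common to a gene family. The insulin-responsive glucose transporter Slc2a4 was higher, from 2080 to 3200 on 1 probe set and from 1280 to 2690 (2.10-fold) on the other.

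Of 2143 measured probe sets on array A, 235 were higher on day 7 (11%) and 177 lower (8.26%). Array B gave 152 higher (8.12%) and 109 lower (5.82%) of 1873. In either direction this was 19.2% on A and 13.9% on B. The step before it, day 4 against day 3, passed the same limit for 12.9% of measured probe sets on A and 7.93% on B, and the step after it, day 28 against day 7, for 18.7% and 11.8%. These steps share a sample with the comparison described here and span 1 day, 3 days and 21 days. On array A the share past 2-fold was 24.5% among the 903 probe sets whose brighter value lay between 500 and 1000, and 11.4% among the 395 between 2000 and 5000. On array B the shares were 15.4% of 721 and 14.5% of 399.

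The balance of higher and lower calls on array A moved with the scaling. As deposited, 57.0% of its 412 calls were higher; after quantile normalization the share was 47.1%, and after centring on the bacterial and phage hybridisation controls 87.8%. Without probe sets whose names mark them as common to a family or to similar sequences it was 67.2%, but only 813 of the 4016 measured probe sets (20.2%) were free of such a mark. The 3 control probe sets that were spiked for hybridisation (BioDn-3, CreX-3 and CreX-5) read 4950, 11400 and 9790 on day 4 and 3670, 8660 and 5350 on day 7, a median difference of -0.43 on the log2 scale, so that centring on them put the median of all measured probe sets of array A at 0.50. On array B the same controls read 2410, 12700 and 10600 against 3470, 12600 and 10300. All 6 probe sets for 18S ribosomal RNA were lower on day 7, from values of 657, 828 and 828 to 142, 226 and -54 on array A and from 687, 882 and 1290 to 415, 156 and 377 on array B. The part of these shifts in the differences below was not tested.

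**Figure D1:**
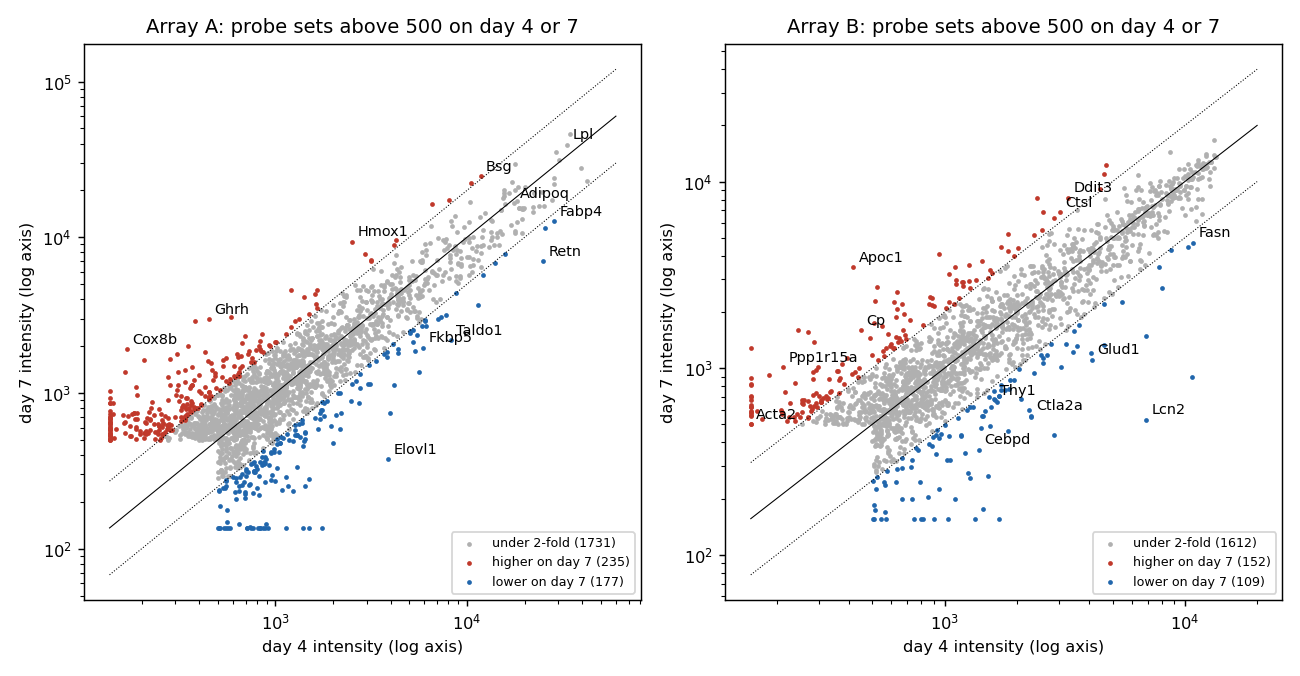
Intensity on day 7 (vertical, log axis) against day 4 (horizontal, log axis) for the 2143 measured probe sets of array A (left) and the 1873 of array B (right), with values under the floor drawn at it; the solid line marks equal values and the dotted lines 2-fold. Red points are higher and blue points lower on day 7, and among the bright adipocyte genes Adipoq and Lpl lie near the line while Fabp4, Retn and Fasn lie under the lower dotted line.

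Probe sets for the same gene gave a measure of how far a single one can be trusted. Among 289 genes with several measured probe sets there were 357 pairs, whose log2 differences between the days lay a median of 0.40 apart and 1.21 at the 90th percentile, with 84.0% of pairs within 1 of each other. Over these pairs the correlation of the 2 differences was 0.48. This is a description over pairs from the same days and, for all but 130 pairs, from the same arrays. Of 81 genes with a probe set past the fold, 59 had all other probe sets on the same side, and 18 had a second one past the fold the same way. Requiring that no measured probe set of a gene went the other way, 237 of 2308 genes were higher (10.3%) and 191 were lower (8.28%), and 21 disagreed. Most of these genes, 204 of the higher and 164 of the lower, had only 1 measured probe set, while 10 higher and 7 lower genes had at least a pair of probe sets past the fold.

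**Figure D2:**
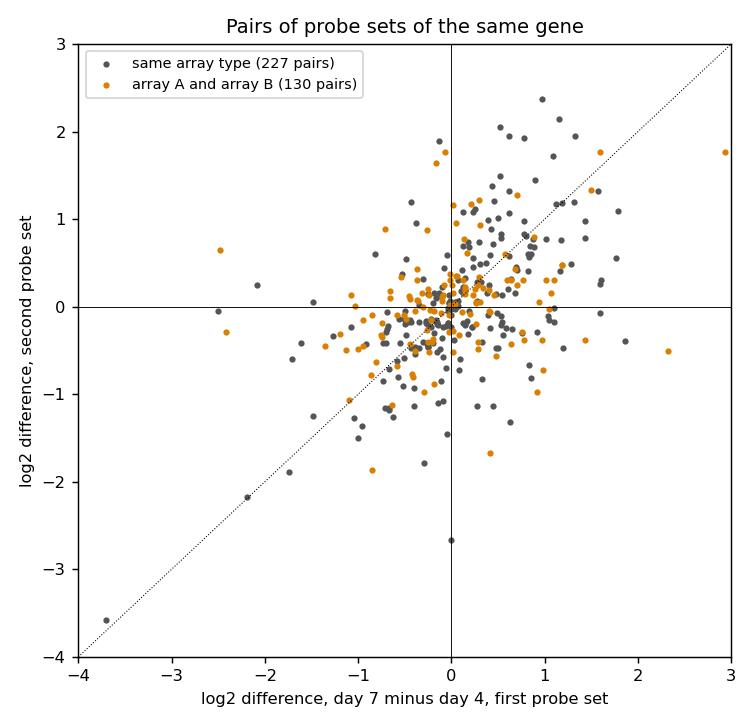
Log2 difference of day 7 minus day 4 for 1 probe set of a gene (horizontal) against another probe set of the same gene (vertical), 357 pairs, with the dotted line marking equal values. Of the pairs 84.0% differ by no more than 1, and 130 orange pairs compare the array types, which were hybridised separately.

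The genes with a pair of probe sets past the fold rest on more than 1 reading, but the probe sets of a pair are not always independent. Lipocalin 2 (Lcn2), a secreted protein that binds bacterial iron carriers, was low before induction, at 336 and 35 on its brighter probe set, and read 818, 2950, 4420 and 3920 at 6, 12 and 24 hours and on day 2. It then read 3860 on day 3, 10700 on day 4, 896 on day 7 and 110 on day 28. The day 7 value was 11.9-fold below day 4, and the other probe set, at 6880 and 528, gave 13.0-fold. Nocturnin (Noct), a circadian phosphatase of nicotinamide dinucleotides, appeared late and briefly, with 193 on day 2, 574 on day 3, 1160 on day 4, 254 on day 7 and 135 on day 28, and its other probe set read 1080 on day 4 and 239 on day 7. Both Noct probe sets are on array A and are named after the same source sequence. Glutamate dehydrogenase (Glud1), which feeds glutamate into the citric acid cycle, had 4060 and 4100 on day 4 and 1210 and 1110 on day 7, both from family probe sets of array B. The nucleosome-binding protein Hmgn2 measured 3420 and 3210 on day 4 against 1220 and 1350, also both from family probe sets of array B. Annexin A8 (Anxa8) measured 5800 against 2710 on array A and 4630 against 2210 on array B. In the other direction, selenium-binding protein 1 (Selenbp1), a methanethiol oxidase, was 380 on day 4 and 2900 on day 7 on array A and 297 and 1010 on array B, and it reached 6040 and 3130 on day 28. Its array B probe set is a family probe set. The dynein light chain Dynll2 read 6610 and 3150 on day 4 against 16400 and 7200 on day 7, both from family probe sets. Ctsa, Ctsl, Dnajb1 and H2-D1, also higher, are described below. The remaining genes with a pair past the fold were Cyb5r1, Mrpl2, Nmt1 and Slc6a6, higher, and Mtm1 and Tubb5, lower. G3bp2 had a pair higher past the fold, but its other probe set read 2190 on day 4 and 2090 on day 7.

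The largest differences by size alone were for the most part near the lower end of the measured range. Among the 15 genes with the largest higher values, 12 had a brighter value under 2000, and among the 15 with the largest lower values 13 did. After Cox8b, Apoc1, Selenbp1 and Ghrh, described below, the higher group held 11 genes, of which all but Mmp11 were at 395 or below again on day 28. Coenzyme A synthase (Coasy) read 163 on day 4, 1370 on day 7 and 326 on day 28, and the cytokine receptor kinase Jak1 read 205, 1630 and 218. Plakophilin 3 (Pkp3), a component of desmosomes, was at -4, 1030 and -199, at least 7.57-fold higher on day 7. The phosphatidylserine synthase Ptdss2 (at least 6.79-fold, -342 on day 28), Nudt14 (at least 6.35-fold), the small GTPase Arf3 (at least 6.32-fold), the cold-inducible RNA-binding protein Cirbp (6.10-fold), Cpne6 (5.83-fold), Gpr182 (5.83-fold) and Coro2b (5.82-fold) had the same shape. The matrix metalloproteinase Mmp11 was at 245, 1610 and 1260 on days 4, 7 and 28.

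Lower by the largest factors after Lcn2 were the ubiquitin ligase Rnf181, at 1500 on day 4 and -63 on day 7, and the water channel aquaporin 1 (Aqp1), at 1690 and 55 (at least 10.8-fold). Aqp1 had been between 1110 and 3500 in all 8 samples up to day 4 and was 644 on day 28. The fatty acid elongase Elovl1 was 10.4-fold lower, and Ifitm10 at least 10.3-fold lower, at 1400 and -10. The metallothionein Mt3 read 1140 and -963, Rpp25l 1340 and -1670, and apolipoprotein A-IV (Apoa4) 1030 and -338. Each of these 3 probe sets was above 0 in the other 9 samples. Mcoln2, Fhl1, Polr1d, Uck2, Timeless, Amy1 and Plcb3 completed the 15, at 5.65-fold or more, with a second probe set of Polr1d at 1780 on both days and a second one of Plcb3 at 1480 and 1430.

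For gene groups, 1 value per gene was taken from its brightest probe set, by which 9.62% of the 2308 measured genes were higher on day 7 and 7.71% lower, with a median difference of 0.04. Of 28 gene lists, the one with the lowest median was that of glucocorticoid and cyclic AMP response, and the highest median was that of TGF-beta, BMP, Wnt and Notch signalling, at 0.53 over 7 genes, which was -0.40 when dimmer probe sets with a brighter value above 250 were admitted.

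**Figure D3:**
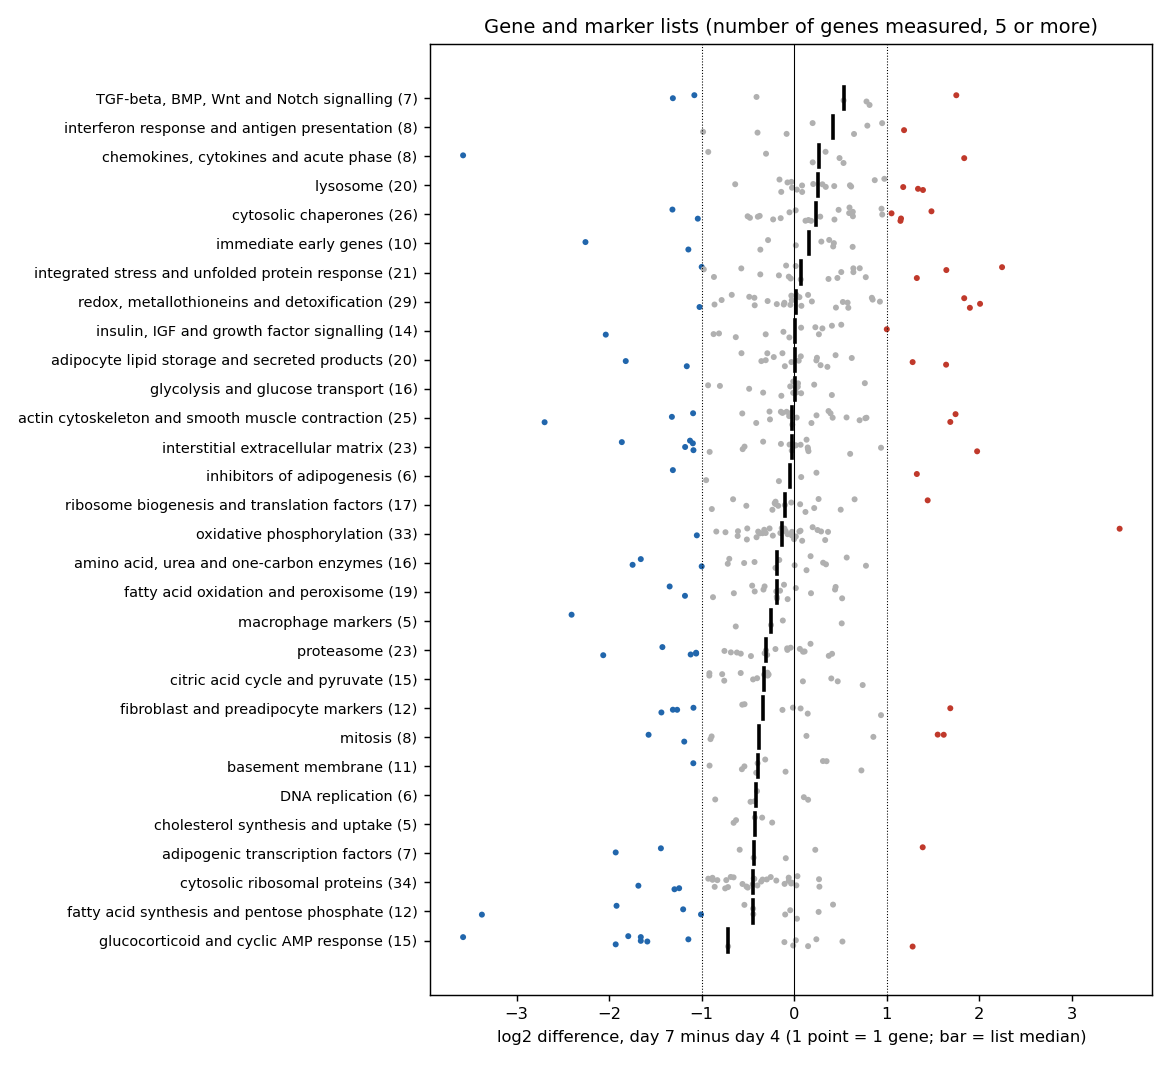
Log2 difference of day 7 minus day 4 for the measured genes of each list (1 point per gene, from its brightest probe set; red and blue past 2-fold), with the list's median as a black bar and the lists ordered by it. The glucocorticoid and cyclic AMP list has its median at -0.71 and 7 blue points, whereas the glycolysis list, at 0.00, has none past 2-fold.

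Genes that respond to glucocorticoid or cyclic AMP, the signals of the induction mixture, had the lowest median of all lists. Of 15 measured genes of glucocorticoid and cyclic AMP response, 7 were lower (Lcn2, Cebpd, Ddit4, Glul, Rgs2, Fkbp5 and Dusp1) and 1 was higher (Angptl4), and the median difference was -0.71. The median was -0.11 over 7 genes on array A and -1.40 over 8 on array B. The clock gene Per1 was at 1150 and 1650 on its brightest probe set and at 195 and 547, past 2-fold, on its other. The FK506-binding protein Fkbp5, a co-chaperone of the glucocorticoid receptor, read 1350 and 1410 before induction, 9460 at 6 hours, 10600 on day 2, 4240 on day 3, 5890 on day 4, 1960 on day 7 and 1270 on day 28. Its day 7 value was 3.01-fold below day 4. C/EBPδ (Cebpd) was between 1030 and 1810 in every sample from 6 hours to day 4, then 365 on day 7 and 367 on day 28, 3.81-fold lower. Ddit4, an inhibitor of mTORC1 signalling, was 4610 on day 4, 1330 on day 7 and 4760 on day 28, and the G-protein regulator Rgs2 was 2720, 862 and 2800, so day 7 was the low one of these 3 samples for both. Glutamine synthetase (Glul) read 1540 and 488 on days 4 and 7, and the phosphatase Dusp1 864 and 391. The members that did not pass 2-fold included Hsd11b1, which makes active glucocorticoid from its inert form, at 12900 and 12800, and the metallothionein Mt2, at 18300 and 17000. All 7 lower probe sets carried the similarity mark of the array design. Only 3 of the 15 genes had a measured probe set without a mark. By the brightest such probe set none of the 3 was past the fold, and their median was 0.48. The dimmer Per1 probe set, higher past 2-fold, was also without a mark. The promoters of 6 of the 7 were at hand (250 bases before to 50 after the start, RefSeq), and none held the glucocorticoid receptor half-site letters AGAACA on either strand, which 19.0% of 32851 promoters held and which was found in those of Asns, Ctsa and Dnajb1.

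Fatty acid synthesis was the metabolic group with the most lower members. Of 12 measured genes for fatty acid synthesis and the pentose phosphate pathway, 4 were lower and none higher, with a median of -0.44. The median was -0.44 over 10 genes on array A, where the hybridisation controls had a median difference of -0.43, and -0.62 over 2 on array B. All 4 lower probe sets carried the similarity mark, and only 1 of the 12 genes had a measured probe set without a mark. Fatty acid synthase (Fasn), which builds palmitate, was 1610 in preconfluent cells, 5990 on day 2, 7980 on day 3, 10800 on day 4, 4700 on day 7 and 9470 on day 28 (2.30-fold lower on day 7). Transaldolase (Taldo1), of the non-oxidative pentose phosphate branch, read 2170, 3630, 8250, 2180 and 1740 over the same 5 stages from day 2, a 3.78-fold difference. Elovl1 was 5340, 2870, 3890, 375 and 741 over those stages. The desaturase Scd2 was 15800 on day 4 and 7860 on day 7, while its paralogue Scd1 went from 34700 to 46400, under 2-fold and in the other direction. Cholesterol synthesis had a median of -0.43, which became 0.0060 with centring on the hybridisation controls, and its 5 measured genes were all below 0 with none past 2-fold, from Hmgcs1 at 2560 and 2170 to Idi1 at 822 and 522.

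Mitochondrial enzymes had medians a little below 0, with few genes past 2-fold. In fatty acid oxidation 14 of 19 measured genes were below 0 (median -0.19), with carnitine palmitoyltransferase 2 (Cpt2) at 1800 and 708 and the sterol carrier protein Scp2 at 6120 and 2700 past 2-fold. The 14 of these genes read on array A had a median of -0.26 and the 5 on array B one of 0.18. In the citric acid cycle 11 of 15 were below 0 and none passed the limit, with a median of -0.33 that became 0.11 with centring on the hybridisation controls. In oxidative phosphorylation 23 of 33 were below 0 (median -0.14), with the complex III core protein Uqcrc1 lower, at 5040 and 2430, and Cox8b higher. Here too the median was nearer 0 on array B, at 0.00 over 9 genes against -0.25 over 24 on array A. Glycolysis, with 8 of 16 on either side and a median of 0.00, did not share this. Asparagine synthetase (Asns), Glul and Glud1 were the lower members among 16 amino acid enzymes, of which 9 were below 0 and 7 above (median -0.18).

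Storage and secreted products split. Among 20 measured genes, 2 were higher, 2 were lower and the median was 0.01. Resistin (Retn), a hormone of mouse fat cells, read 498 at 24 hours, 2740 on day 2, 9220 on day 3, 24900 on day 4, 7050 on day 7 and 2550 on day 28, 3.53-fold lower on day 7. Retinol-binding protein 4 (Rbp4) went from 220 to 686 and then 992, after 888, 878 and 913 in preconfluent, confluent and 6 hour cells. Angptl4, an inhibitor of lipoprotein lipase, went from 820 to 1990 and 1630. The lipid droplet and esterification genes measured here were all under 2-fold, from Dgat2 at -0.57 (10600 and 7140) to Plin2 at 0.45 (4410 and 6010), with Cidec, Gpd1 and Gpam at -0.13, 0.07 and -0.03 on the log2 scale. Of 7 transcription factors that promote the process, Cebpd and the retinoid receptor Rxra (1170 and 431) were lower and Ebf1 (222 and 581) higher.

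Of 21 measured genes of the integrated stress and unfolded protein response, 6 had their highest value of all stages on day 7. Past 2-fold were 3 of these (Ddit3, Trib3 and Ppp1r15a). Over all 2308 measured genes day 7 was the highest stage in 17.7%, and 9.62% were higher past 2-fold by their brightest probe set. Ddit3, which encodes the C/EBP-like factor CHOP, was below 0 at each of the 5 stages from 6 hours to day 3, then 3270 on day 4, 8190 on day 7 and 2570 on day 28, 2.50-fold higher on day 7 than on day 4. Trib3, a pseudokinase that binds Akt, was 377 on day 3, 669 on day 4, 2090 on day 7 and 323 on day 28 (3.12-fold), and Ppp1r15a, the phosphatase subunit that restores translation, was -105, 213, 1010 and 253 (4.74-fold). The median of the list was 0.07. The other 3 with their highest value on day 7 were the tRNA synthetases Aars (3570 on day 4 and 6100 on day 7) and Wars (1220 and 1900) and the chaperone Hspa5, at 0.37 on the log2 scale. Atf4 itself was 2830 and 3910, under 2-fold. Asparagine synthetase (Asns), another gene that ATF4 is known to activate, went the other way, with 5020 on day 4, 2510 on day 7 and 2700 on day 28, and the folding enzymes Pdia6 and Pdia3 of the endoplasmic reticulum were at -0.87 and -0.57. The 3 probe sets of the lectin chaperone calnexin (Canx) disagreed, at -0.98, -0.29 and 0.92.

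The promoters of Trib3, higher on day 7, and Asns, lower, both held a match to TGATGNAA, the core of the amino acid response element. N stands for any base, and 3.97% of 32851 mouse promoters of this window held a match on either strand. The matches are shown in capitals in the RefSeq promoters of the genes on build GRCm38.p6 (Trib3 at chr2:152344011-152344310, minus strand, and Asns at chr6:7693160-7693459, minus strand, each 300 bases in the direction of the gene).
Trib3: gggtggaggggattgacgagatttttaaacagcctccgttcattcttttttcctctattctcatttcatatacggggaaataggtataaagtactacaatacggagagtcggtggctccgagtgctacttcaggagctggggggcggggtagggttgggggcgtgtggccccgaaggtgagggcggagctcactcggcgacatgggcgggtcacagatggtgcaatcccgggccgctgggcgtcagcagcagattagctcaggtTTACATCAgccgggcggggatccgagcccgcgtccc
Asns: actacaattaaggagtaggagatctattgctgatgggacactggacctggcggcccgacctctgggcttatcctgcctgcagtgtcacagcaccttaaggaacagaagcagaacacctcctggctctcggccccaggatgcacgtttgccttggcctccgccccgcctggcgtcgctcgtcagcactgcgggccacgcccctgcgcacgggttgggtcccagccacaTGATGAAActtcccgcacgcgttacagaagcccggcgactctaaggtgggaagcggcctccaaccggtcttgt
In Trib3 the letters lie on the opposite strand, beginning 14 bases after the start of transcription, and in Asns on the strand of the gene, beginning 23 bases before it. Ddit3 and Ppp1r15a had no match to this core in the window, and Ddit3 held the NF-Y box CCAATCAG, found in 4.10% of promoters. The other patterns searched on both strands in these 4 stress genes were the C/EBP palindrome TTGCGCAA (0.183% of promoters, in none of the 4), the E-box TCACGTGA (0.974%, in none), the heat shock core GAANNTTC (7.86%, in Asns) and the glucocorticoid receptor half-site AGAACA (19.0%, in Asns). None of the searched patterns contains another, but in Asns the heat shock match GAAACTTC overlaps the TGATGAAA match and shares its letters GAAA. A match of letters describes the sequence and not a bound site.

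Chaperones and redox genes had a few more higher than lower members, as did all measured genes by their brightest probe set (9.62% higher and 7.71% lower). Of 26 cytosolic chaperones, 4 were higher and 2 lower, with a median of 0.23. The HSP40 co-chaperone Dnajb1 was higher on both of its probe sets, from 836 to 1860 and from 309 to 1360, with day 28 at 559 and 293. Hspa4 (347 and 719, with a second probe set at 781 and 700), the cyclophilin Ppid and the chaperonin subunit Cct6a (866 and 2420) were the other higher ones, whereas the subunits Cct3 (1230 and 494) and Cct5 (2780 and 1350) of the same chaperonin ring were lower. Heme oxygenase 1 (Hmox1), which breaks down heme, was between 800 and 2970 in the 8 samples up to day 4, 2520 on day 4 itself, 9390 on day 7 and 5400 on day 28, 3.73-fold higher. The autophagy receptor Sqstm1, another gene known to respond to oxidative stress, was 8110, 17300 and 9890 on days 4, 7 and 28. Among 29 redox and detoxification genes, Hmox1, the epoxide hydrolase Ephx2 and ceruloplasmin (Cp) were higher and the aldehyde dehydrogenase Aldh1a7 lower (8740 and 4300), with a median of 0.02.

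**Figure D4:**
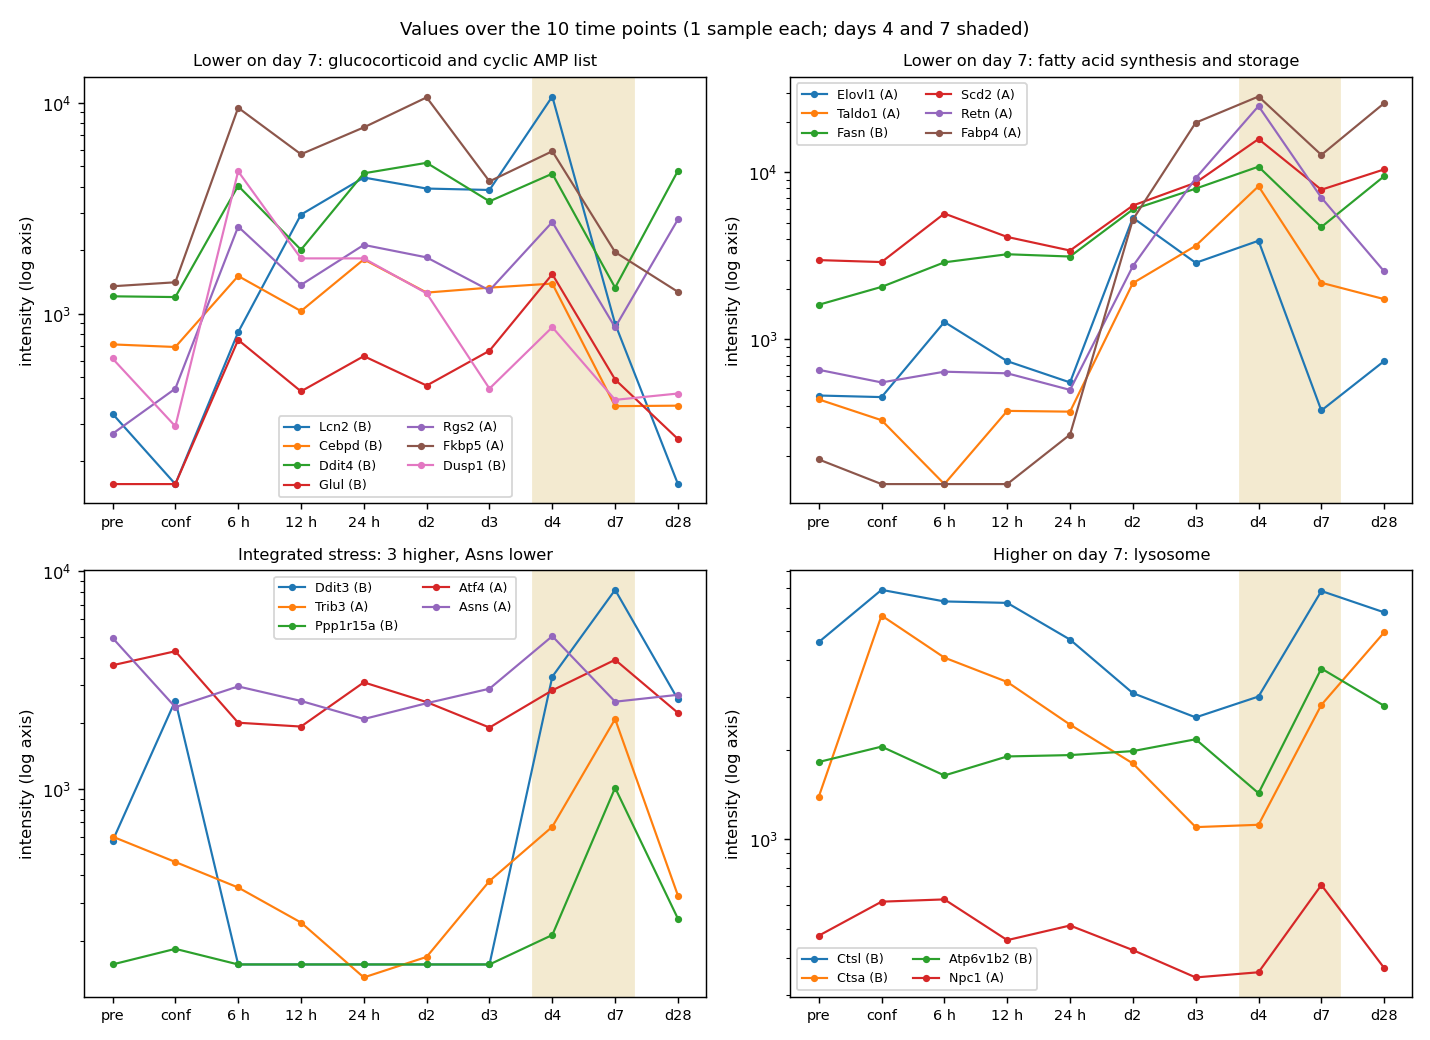
Intensity (log axis, values under the floor drawn at it) over the 10 stages for members of 4 groups, 1 sample per stage and the brightest probe set per gene, with days 4 and 7 shaded and the array type in brackets. Fkbp5 and Cebpd end below their level before induction, Fasn and Fabp4 dip on day 7 and return by day 28, Ddit3, Trib3 and Ppp1r15a have their highest point on day 7, and the cathepsins go up from day 4.

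By their brightest probe set, 3 lysosomal genes were past 2-fold, all higher and all read on array B. The 5 proteasome genes past it were all lower and all read on array A. Over all measured genes 9.62% were higher and 7.71% lower past 2-fold. Of 20 measured lysosomal genes 14 were above 0, 3 of them past 2-fold and none lower past 2-fold, with a median of 0.25. The median was 0.21 over 10 genes on array A, with none past 2-fold, and 0.25 over 10 on array B. Cathepsin L (Ctsl), a protease of the lysosome, read 6890 in confluent cells, then 2570 on day 3, 3020 on day 4, 6830 on day 7 and 5790 on day 28. The protective protein cathepsin A (Ctsa) had the same course, 5650 in confluent cells, 1100 on day 3, 1120 on day 4, 2830 on day 7 and 4960 on day 28, and its probe set on array A gave 629 on day 4 and 1780 on day 7. All cathepsin A and L probe sets are family probe sets. The proton pump subunit Atp6v1b2 was between 1430 and 2170 in all 8 samples up to day 4, 3750 on day 7 and 2810 on day 28. The cholesterol exporter Npc1 was 358 and 703 on its brighter probe set and 142 and 734 on the other. Cathepsins B and D, also lysosomal proteases, differed by -0.03 and -0.07.

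Promoters were at hand for Ctsa, Ctsl and Grn. Of these Ctsa held the palindrome TCACGTGA, an E-box of the kind bound by the lysosomal regulator TFEB, which 0.974% of promoters held, and it is shown because Ctsa was higher on both array types. It occurs in capitals at 2 places in the promoter at the second of its listed starts (GRCm38.p6, chr2:164833523-164833822, plus strand, 300 bases).
Ctsa: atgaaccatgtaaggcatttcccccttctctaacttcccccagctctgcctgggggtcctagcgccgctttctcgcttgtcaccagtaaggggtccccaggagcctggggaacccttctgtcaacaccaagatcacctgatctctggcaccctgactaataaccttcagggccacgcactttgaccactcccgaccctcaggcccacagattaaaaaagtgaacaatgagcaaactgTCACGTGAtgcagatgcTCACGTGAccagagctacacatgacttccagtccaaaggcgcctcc
The first copy begins 13 bases before the start and the other 4 bases after it. Ctsl, which held the letters TGATGNAA, had no copy of it in its window.

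Of 23 proteasome subunits, 17 were below 0 and 5 lower past 2-fold, with none higher and a median of -0.31 (-0.31 over 17 on array A, -0.20 over 6 on array B). The lid subunit Psmd7 was between 1250 and 2110 in the 8 samples up to day 4, then 476 on day 7 and 494 on day 28 (4.18-fold lower than the 1990 of day 4). The catalytic subunit Psmb7 was 3060, 1140 and 995 on days 4, 7 and 28. The base subunit Psmd2 (2170 and 999) and the ring subunits Psma7 (1800 and 863) and Psma5 (3690 and 1770) were the others. All 5 came from array A and from probe sets with the family or similarity mark; only 3 subunits had a measured probe set without a mark, with none past 2-fold and a median of 0.08. Of 34 cytosolic ribosomal proteins 30 were below 0, with a median of -0.44. The shift was larger on array A, with -0.61 over 24 genes against -0.06 over 10 on array B, and all 221 probe sets of array A with a brighter value above 5000 had a median of -0.27. Only Rps26 (1960 and 610), Rpl10 (846 and 345) and Rpl8 (7080 and 2990) were past 2-fold, all on array A. Beside both groups, the 18S ribosomal RNA probe sets and, on array A, the hybridisation controls were lower on day 7, and with array A centred on those controls 1 proteasome and 1 ribosomal gene was left past 2-fold.

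Fibroblast RNAs did not move together. The fibrillar collagens Col1a1, Col1a2 and Col3a1 differed by 0.15, 0.07 and -0.01. The matrix protein fibronectin (Fn1) was 2720 on day 4 and 5210 on day 7 on array B and 1630 and 2010 on array A, under 2-fold on both. Of 12 measured fibroblast and preadipocyte markers 4 were lower and 1 higher. The calcium-binding protein S100a4 was 18400 in preconfluent cells, 7050 on day 3, 3110 on day 4, 1150 on day 7 and 5500 on day 28. The preadipocyte factor Dlk1, which inhibits adipogenesis, was 7910 at confluence, 1970 on day 3, 1700 on day 4, 685 on day 7 and 3140 on day 28, and the surface protein Thy1 was 9670, 1580, 1620, 674 and 4240 at these stages. In these 3 genes day 7 was the lowest of all 10 samples and day 28 was higher again. The matricellular protein periostin (Postn) was 2510 and 1180. The higher marker was smooth muscle actin (Acta2), at -58 on day 4, 502 on day 7 and 5850 on day 28, after 11600 at confluence. With values under 0 taken as 0, the summed intensity of the 8 markers on array A was 14100 on day 4 and 11624 on day 7, and of the 9 on array B 43730 and 44426.

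Within the interstitial matrix list 5 of 23 measured genes were lower (Postn, Loxl1, Bgn, Vcan and Timp1) and 1 higher (Mfap4), with a median of -0.03. The proteoglycan versican (Vcan) was 8940 at 24 hours, 993 on day 4, 273 on day 7 and 287 on day 28, and biglycan (Bgn) was 12200, 5710 and 11500 on days 4, 7 and 28. The protease inhibitor Timp1 was 729, 322 and 8270. The fibroblast growth factor receptor Fgfr1 was between 1970 and 6090 in the 8 samples up to day 4, then 1370 on day 7 and 1550 on day 28, 4.10-fold lower than the 5620 of day 4.

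**Figure D5:**
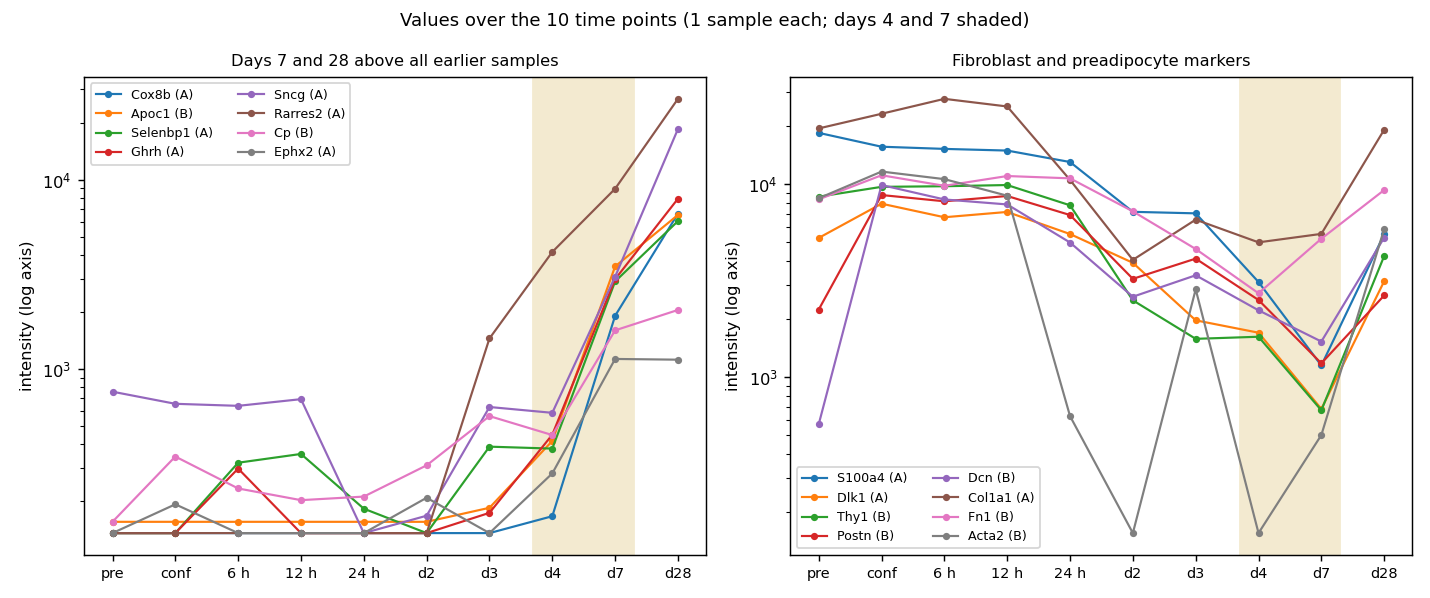
Intensity (log axis, values under the floor drawn at it) over the 10 stages for genes whose day 7 and day 28 values exceed all 8 earlier ones (left) and for fibroblast and preadipocyte markers (right), 1 sample per stage, days 4 and 7 shaded. On the left all 8 genes go up between day 4 and day 7, and on the right S100a4, Dlk1 and Thy1 reach their lowest value on day 7 while Col1a1 is level between days 4 and 7.

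Some genes were above all 8 earlier samples on day 7 and again on day 28, and several of them were far higher still on day 28. Of the 237 higher genes, 59 (24.9%) had day 7 and day 28 values above all 8 earlier samples, against 8.80% of the 2308 measured genes; the first share is not independent of the choice, since a higher day 7 value is part of both. By day 28, 22 of the 59 were at or above their day 7 value and 4 were under it by more than 2-fold. Cox8b, a subunit of cytochrome oxidase known from brown fat and muscle, was below 0 in all 7 samples up to day 3, 167 on day 4, 1910 on day 7 and 6610 on day 28, 11.4-fold higher on day 7 from a family probe set. Other markers of brown fat did not accompany it, with Ucp1 at 62 and -44 and Cidea at 80 and 152. Apolipoprotein C-I (Apoc1), a protein of circulating lipoproteins, was 185 on day 3, 417 on day 4, 3480 on day 7 and 6510 on day 28, also on a family probe set. The probe set for growth hormone-releasing hormone (Ghrh) read 174, 450, 2980 and 7930 on these days, and γ-synuclein (Sncg) 630, 587, 3070 and 18500. Chemerin (Rarres2), a secreted adipocyte protein, went from 1450 on day 3 to 4150, 8950 and 26700, and basigin (Bsg), a chaperone of lactate transporters, from 6170 to 11800, 24600 and 40200. Ephx2, which converts epoxides of fatty acids, was 129, 281, 1130 and 1120, and ceruloplasmin (Cp), a copper-carrying ferroxidase, was 564, 448, 1600 and 2050.

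Some of the lower genes peaked on day 4. Of the 191 lower genes, day 4 was the highest of all 10 samples in 58 (30.4%), against 13.6% of all measured genes, and day 7 was the lowest of all in 94 (49.2%), against 12.0%; these shares too follow in part from the choice. Days 7 and 28 were both below all earlier samples in 60 (31.4%), against 8.71% of all measured genes. This share also follows in part from the choice. Lcn2, Retn, Taldo1, Glud1 and Noct had their peak on day 4. Wfdc21, a secreted protein with a whey acidic protein domain, was 2250 on day 3, 3980 on day 4, 746 on day 7 and 792 on day 28, and the proline-pathway enzyme Aldh4a1 was 3040, 5360, 1850 and 843. The mitochondrial thiolase Acat1 read 1470, 2070, 727 and 1410.

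Markers of other cell types ranged from the floor to more than 1000. Of the macrophage list, Adgre1 was 53 on day 4 and 47 on day 7, Csf1r -85 and -108 and Cd68 236 and 258, and 1 of 5 measured members was past 2-fold, lysozyme Lyz2, at 1240, 234 and 1620 on days 4, 7 and 28. The other 4 were Ptprc (1720 and 1110), Cd14 (1190 and 1000), Fcer1g (805 and 739) and C1qb (473 and 675), which were between 445 and 2470 at every stage, preconfluent cells included. The summed macrophage intensity was 4929 and 3410 over 8 genes on array A and 1792 and 1724 over 8 on array B. Among muscle markers Myh3 was higher, at 8 and 643, with Ckm at 2720 and 2870, Myog at 865 and 540 and Mb at 605 and 651, and the summed intensity was 1539 and 2593 over 11 genes on A and 4370 and 3898 over 5 on B. Among endothelial markers Pecam1 (65 and -70) and Tek (47 and -78) were under the floor, while Kdr was 800 and 538 and Icam2 669 and 791. Of 6 bone and cartilage markers on the arrays none was measured, with Acan at 80 and 18 and Col2a1 at 74 and 6. Brown fat markers summed to 400 and 2062 over 4 genes on array A, of which Cox8b made up 167 and 1910, and to 300 and 211 for 1 gene on array B.

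The remaining lists had few measured members past the limit. Of 8 mitosis genes Anln (195 and 571) and Cks1b (220 and 674) were higher and Plk1 (882 and 387) and Hmmr (1420 and 477) lower, with a median of -0.38 that became 0.0451 with centring on the hybridisation controls. DNA replication had none of 6 past 2-fold (median -0.42), and the basement membrane list had the laminin receptor Itga6 lower among 11 (3620 and 1700, median -0.40). Of 25 actin and contraction genes, Zyx (291 and 974) and Acta2 were higher, and Actg2, Cnn3 and Fhl1 were lower, with a median of -0.02. Among 10 immediate early genes Egr2 (745 and 156) and Dusp1 were lower (median 0.16). Of 8 interferon and antigen presentation genes the class I heavy chain H2-D1 was higher, at 1630 and 3710 on its brightest probe set, and H2-K1 (1610 and 3110) and B2m (4650 and 8040) were higher by less than 2-fold, with a median of 0.42. Of 8 chemokine, cytokine and acute phase genes Cp was higher and Lcn2 lower (median 0.27). Pdgfa was higher and Fgfr1 lower among 14 insulin and growth factor genes (median 0.01), Tgfbi (164 and 552) was higher and Fstl1 and Dlk1 were lower among 7 TGF-beta, BMP, Wnt and Notch genes, and Ddit3 was higher and Dlk1 lower among 6 inhibitors of adipogenesis (median -0.05). Of 17 genes for ribosome biogenesis and translation factors Eif1a (342 and 929) was higher (median -0.10), and neither of the 2 measured endothelial markers was past 2-fold.

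Counts by the brightest probe set leave out list members with agreeing probe sets that passed 2-fold on a dimmer one. Besides Slc2a4, Per1 and Npc1 these were Grn (573 and 1160), Msn (225 and 545) and Capg (102 and 591), higher, and Rrm2 (570 and -24), Hspg2 (951 and 416) and Rpsa (698 and 314), lower.

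The 2-fold limit separates genes whose values hardly differ. Just inside it were Pdgfa, at 335 and 670, and Asns, at 5020 and 2510, both 2.00-fold. Just outside it were Lrpprc, at 603 and 1200, and Itm2c, at 3210 and 1610, both 1.99-fold.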

How the data were processed

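Total RNA was extracted with Trizol, and biotin-labelled cRNA from 10 µg was hybridised to Affymetrix arrays, per the labels' protocols. Each stage had 1 sample on each array type. Whether both samples of a stage used the same RNA is not given in the sources used here. The deposited values are linear intensities per probe set, as the authors' table gives them; the software and its version are not given in the sources used here. The 4 arrays shared a trimmed mean of 500.1; how values below 0 arose is not given in the sources used here. Array types were compared separately. Values under the floor (the sign-turned 10th percentile of an array type over its 10 arrays) were set to it, and log2 was taken with no further scaling. The 110 control probe sets were left out of counts. Symbols came from the platform annotation, updated through RefSeq gene IDs (GRCm38.p6). The genes named are the 15 largest higher and lower among genes with agreeing probe sets, list members past 2-fold, 7 checks of the cells, and genes with several probe sets past 2-fold. Sqstm1, Sncg, Rarres2, Bsg, Wfdc21, Aldh4a1 and Acat1, members given as under 2-fold and the time-course shapes were chosen after their values were seen. The members and the 28 gene and 6 marker lists were chosen with earlier results of these data known. The procedure was tested on simulated data. Promoter letters were searched on both strands. Python 3.11.15, NumPy 2.4.6, pandas 2.3.3 and Matplotlib 3.10.9 were used.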

Additional observations from a re-analysis of the deposited data

How the results depend on the processing

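With 1 sample a side, no sample could be left out and nothing was tested. No paired analysis was possible because each stage had 1 sample on each array type. Of 109 named probe sets under the alternatives, 716 values kept their direction and side of the fold limit, 65 no longer passed it and 0 reversed. Changing the floor or the brightness limit cannot reverse a difference, and both centring shifts were smaller than the fold limit. Under these settings the 0 was therefore largely fixed beforehand. Without family and similarity probe sets only 18 of the 109 had a value, and the rest are not counted as lost. With a brighter value above 250, higher and lower calls were 437 and 302 on array A, 166 lower on B, and 417 and 304 genes, and the TGF-beta list's median was -0.40. Above 1000 they were 95 and 96 on A, 80 and 70 on B and 99 and 109 genes; the medians of adipogenesis inhibitors and of chemokines were -0.95 and -0.0526, and 0 fibroblast markers were higher. Without family and similarity probe sets, which left 20.2% of the measured ones, they were 92 and 45 on A, 21 and 13 on B and 83 and 44 genes; medians were -0.57 for actin, 0.48 for glucocorticoid response (0 higher, 0 lower) and 0.0775 for the proteasome (0 lower), and stress response had 1 higher and 0 lower. Centred on hybridisation controls, chosen after seeing the data, array A had 512 and 71 and genes 480 and 106; medians were 0.0060 for cholesterol, 0.11 for the citric acid cycle and 0.0451 for mitosis, with 6 higher and 0 lower stress genes, 6 higher lysosomal, 1 lower proteasome and 1 lower ribosomal gene. A 1.5-fold limit gave 502 and 365 on A, 329 and 259 on B and 509 and 400 genes, and a 3-fold limit 99 and 56, 44 and 40, and 96 and 65. Quantile normalization left 0 lower stress genes and 0 higher fibroblast markers, a floor of 300 also 0 higher fibroblast markers, median centring 2 lower stress genes, and the median over probe sets 2 higher glucocorticoid genes. The cause of these changes was not tested. Signal over background limits the comparison, since 47.3% of array A lay at the floor on day 4.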
